A study of Mus musculus with 21 samples.

Results

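Csf1r, Ctss, B2m and Il6st are 4 immune genes of the mouse cortex, and they were taken by their GENCODE symbols from the 5544 genes held in the deposited table. All 4 were found, and no further filter on low values was applied to them. The libraries came from the cortex of male C57BL/6 mice labelled as 12 weeks old, which carried no transgene, and both groups were anesthetized with isoflurane each day. The high-frequency head impact (HF-HI) group of 11 libraries came from mice given head impacts in daily sessions by a device, and the sham group of 10 libraries came from mice that were handled and anesthetized alike but not struck. All cortices were taken 24 h after the last impact, so a single time point was compared. RNA came from whole cortex, which mixes neurons, glia, vessels and blood.

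Microglia are the resident macrophages of the brain. They depend for survival on the receptor CSF1R, which binds the cytokines CSF1 and IL-34 and signals as a tyrosine kinase. Cathepsin S, the product of Ctss, is a lysosomal protease of microglia and other antigen-presenting cells that trims the invariant chain of MHC class II and can act outside the cell. Beta-2-microglobulin, the product of B2m, is the light chain of MHC class I molecules, made by most cells and raised by interferon. Il6st encodes gp130, the signal-transducing receptor chain shared by interleukin-6, LIF, CNTF and related cytokines, which acts through JAK kinases and STAT3 in neurons, astrocytes and microglia.

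B2m and Ctss carry a sequence match to the interferon-stimulated response element next to their start sites, and Il6st does not. The sequences are shown because these genes are often grouped as inflammatory targets, while their values below moved in different ways. They are the 150 bases before the RefSeq start of each gene on the plus strand of GRCm38.p6, with the match, 2 copies of GAAA set 2 bases apart, in capitals. The windows are chr2:122147537-122147686 for B2m, chr3:95526636-95526785 for Ctss and chr13:112463920-112464069 for Il6st.
B2m: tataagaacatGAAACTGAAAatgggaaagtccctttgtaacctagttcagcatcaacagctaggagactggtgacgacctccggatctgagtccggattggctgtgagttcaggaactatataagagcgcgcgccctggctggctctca
Ctss: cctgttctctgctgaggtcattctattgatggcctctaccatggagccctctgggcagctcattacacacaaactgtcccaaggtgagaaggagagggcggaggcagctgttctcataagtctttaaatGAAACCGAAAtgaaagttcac
Il6st: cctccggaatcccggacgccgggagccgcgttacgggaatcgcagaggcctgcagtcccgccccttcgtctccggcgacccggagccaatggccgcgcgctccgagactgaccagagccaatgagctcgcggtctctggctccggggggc
The match lies 139 to 130 bases before the start in B2m and 21 to 12 bases before it in Ctss. Over the 250 bases before the start, read on both strands, that element was held by 2.98% of 32851 RefSeq promoters, TTC followed by GAA after 3 bases, a STAT-type site, by 7.02%, and GAGGAA, the core bound by the myeloid factor PU.1, by 23.3%. The Ctss promoter also held GAGGAA at 164 to 159 bases before the start, none of the 3 promoters held the STAT-type site, and the Il6st promoter held none of these motifs. These matches are letters in a window and not tested sites.

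The values are variance-stabilized read counts on a log2 scale, on which a difference of 1 is a doubling. Most of the table differed between the groups. Shares, adjusted p-values and percentiles given here refer to the genes of this table and not to the whole transcriptome. By limma with Benjamini-Hochberg adjustment over all genes, 66.3% of the 5544 genes passed an adjusted p of 0.05, with 32.6% of the table higher after HF-HI and 33.6% lower, and 13.5% of genes showed no overlap between the groups. Among the 4 genes, Csf1r and Il6st rose, Ctss fell and B2m did not pass the test. This share of 3 in 4 is near the background. The median absolute difference over all genes was 0.156 on the log2 scale. The libraries also differed in how values followed the GC content of a gene's exons, and this slope per 10% GC was -0.106 ± 0.0775 (SD, n = 10) for the sham libraries, against 0.096 ± 0.0602 (SD, n = 11) after HF-HI. With that trend removed from each library, 60.2% of 5539 genes passed. Total depth is unknown, and depth relative to the median library ran from 0.580 to 1.26 in sham and from 0.548 to 1.63 in HF-HI. Its mean was lower in sham, at 0.865 ± 0.203 (SD, n = 10), than in HF-HI, at 1.15 ± 0.399 (SD, n = 11).

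Il6st showed a rise in every HF-HI library. It lies at chr13:112464070-112510086 (ENSMUSG00000021756), with an exonic GC content of 47.0%. Sham values were 9.65 at the lowest, 9.78 at the median and 9.86 at the highest, and HF-HI values were 9.97, 10.05 and 10.15. The groups did not overlap. The sham mean was 9.76 ± 0.0784 (SD, n = 10) and the HF-HI mean 10.1 ± 0.0548 (SD, n = 11), a difference of 0.31 with a standard error of 0.0321 and an adjusted p of 3.31e-08 by limma, or 1.24-fold (95% interval 1.18 to 1.30). This was a modest change in size, at the percentile 82.6 of absolute differences over all genes. With the GC trend removed the difference was 0.32, with an adjusted p of 1.80e-08 by limma. In bulk cortex, a change in the number of cells that make a transcript cannot be told apart from a change in the RNA per cell, which holds for every gene here.

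Ctss moved the other way. The gene is at chr3:95526786-95556403 (ENSMUSG00000038642), with an exonic GC content of 45.9%. Its values in sham ran from 8.77 through a median of 9.02 to 9.22, and in HF-HI from 8.38 through 8.75 to 8.89. All 11 HF-HI libraries lay below the sham median and 6 lay below the lowest sham library. Of the sham libraries, 8 lay above the highest HF-HI library, so the groups overlapped from 8.77 to 8.89. The mean fell from 9.01 ± 0.138 (SD, n = 10) to 8.71 ± 0.155 (SD, n = 11), a difference of -0.30 with a standard error of 0.0610 and an adjusted p of 1.77e-04 by limma. As a fold this was 0.813 of the sham level (95% interval 0.745 to 0.887). With the GC trend removed the difference was -0.27, with an adjusted p of 4.00e-04 by limma. A pseudogene of Hmgb1 lies within Ctss on the same strand, outside its exons.

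Csf1r rose slightly in the values as deposited. It lies at chr18:61100598-61132149 (ENSMUSG00000024621) and is the member richest in GC, at 53.7% against a median of 47.6% over all genes. Sham values were 9.04 at the lowest, 9.18 at the median and 9.39 at the highest, and HF-HI values were 9.18, 9.33 and 9.48. The groups overlapped broadly, with 10 of 11 HF-HI libraries above the sham median and 4 above the highest sham library. The mean went from 9.21 ± 0.121 (SD, n = 10) to 9.34 ± 0.0932 (SD, n = 11), a difference of 0.13 with a standard error of 0.0462 and an adjusted p of 0.0184 by limma, or 1.09-fold (95% interval 1.02 to 1.17). The difference was -0.0038 with the GC trend removed, with an adjusted p of 0.940 by limma, so the call rests on the scale used. It also missed the threshold with library medians centred (0.076, adjusted p = 0.144 by limma), with quantile normalization (0.092, 0.0711) and with relative depth as a covariate (0.096, 0.0760). Hmgxb3, on the opposite strand, shares exonic bases with Csf1r, and whether the counting used strand is not given in the sources used here. Its own difference was 0.071, with an adjusted p of 0.199 by limma.

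B2m was the member with the smallest difference on the deposited scale, while with the GC trend removed Csf1r was. The gene is at chr2:122147686-122153083 (ENSMUSG00000060802), is the shortest of the 4 with 860 exonic bases, and is the poorest in GC, at 41.2%. Sham values ran from 9.24 through a median of 9.40 to 9.57, and HF-HI values from 9.23 through 9.40 to 9.52. The groups overlapped almost wholly. The means were 9.40 ± 0.120 (SD, n = 10) and 9.39 ± 0.0792 (SD, n = 11), a difference of -0.0099 with a standard error of 0.0437 and an adjusted p of 0.853 by limma. The 95% interval of the fold, 0.933 to 1.06, bounds the change that these libraries allow on the deposited scale. With the GC trend removed the difference was 0.10, with an adjusted p of 0.0607 by limma. Patl2 shares exonic bases with B2m on the opposite strand.

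**Figure D1:**
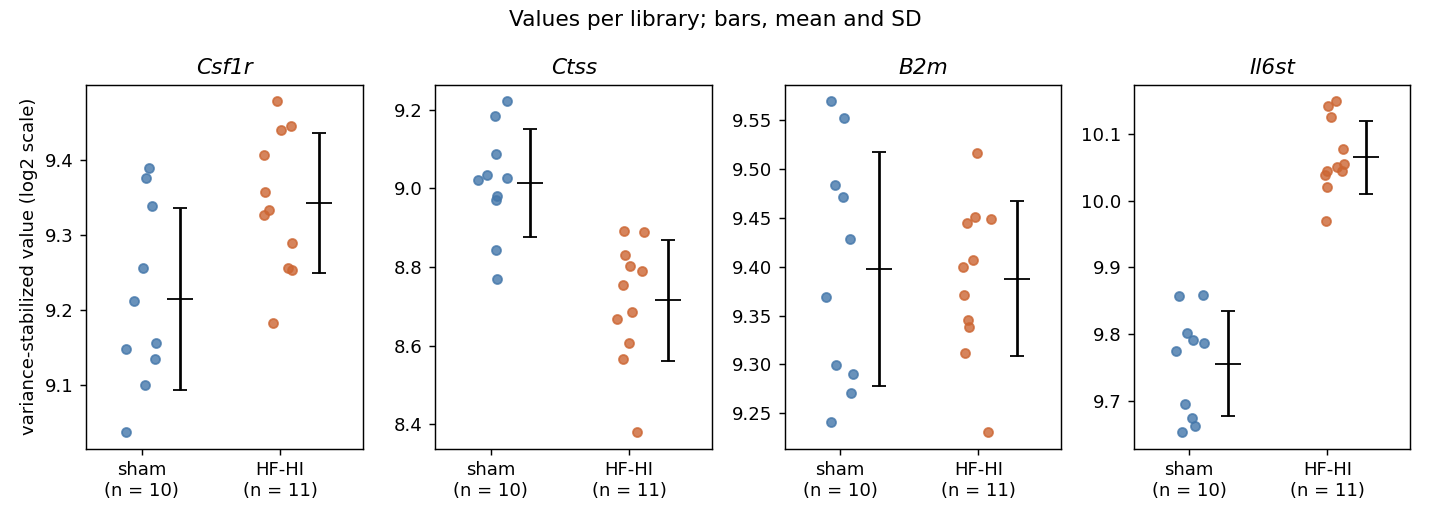
Variance-stabilized value (log2 scale) of each gene in each library, with sham and HF-HI side by side and a bar for the mean and SD. The Il6st groups do not overlap, 6 of 11 HF-HI libraries lie below every sham library for Ctss, and the B2m groups cover nearly the same range. Each panel has its own axis.

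Per kilobase of exon, B2m was the most abundant member and Il6st the least in both groups. On this linear scale, 2 to the power of the value divided by exonic length, the level of B2m was 787 ± 65.6 for sham (SD, n = 10) and 780 ± 42.4 for HF-HI (SD, n = 11). Ctss followed with 382 ± 36.1 in sham and 311 ± 32.0 in HF-HI. Csf1r had a level of 103 ± 8.74 in sham and 113 ± 7.25 in HF-HI, and Il6st one of 78.0 ± 4.23 and 96.6 ± 3.68. Neighbours in this order were separated by more than 1 SD on either side in both groups, and the closest pair was Csf1r and Il6st in HF-HI. The SD covers the spread between libraries only. Exonic length here joins all annotated transcripts of a gene, and which of them were expressed was not examined, so the order may depend on it.

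**Figure D2:**
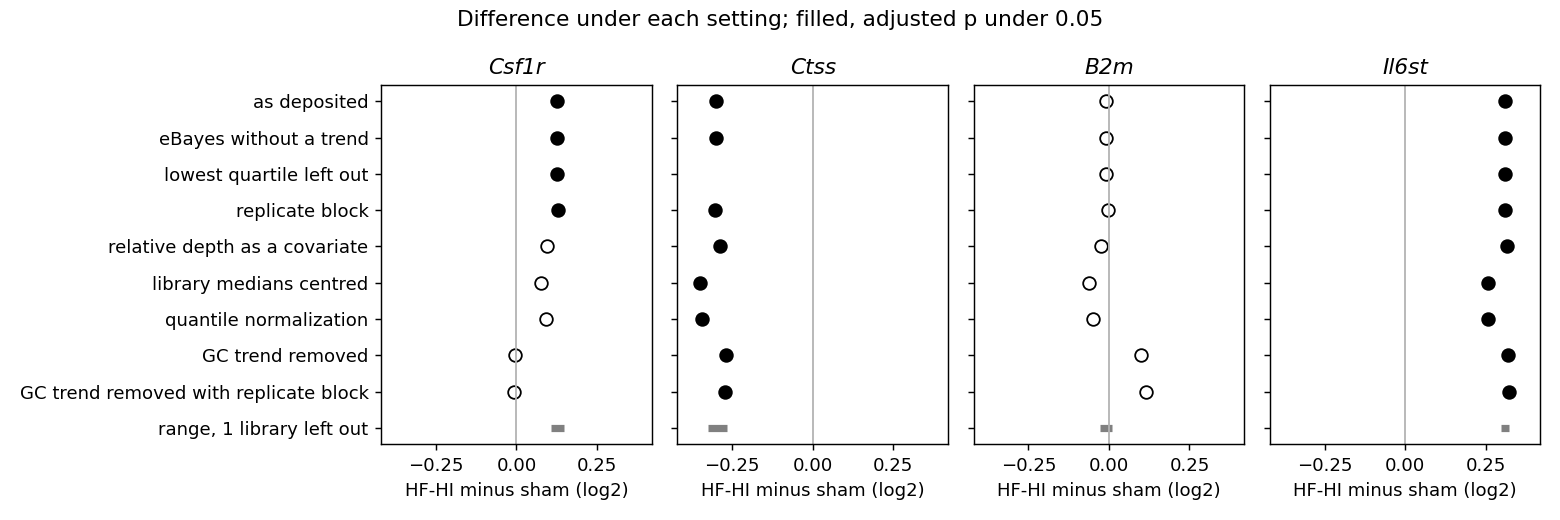
HF-HI minus sham on the log2 scale for each gene under each processing setting, filled where the adjusted p is under 0.05, with a grey bar for the range when 1 library is left out. Ctss stays below 0 and Il6st above 0 in every setting drawn, Csf1r goes from 0.13 to -0.0038 once the GC trend is removed, and Ctss has no value where the lowest quartile of genes is left out because it belongs to that quartile.

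Ctss and Csf1r are both used as microglial genes, so their difference within each library is given as a description, with no test, since the pair was chosen after the values were seen to move apart. Ctss minus Csf1r ran from -0.619 through a median of -0.208 to 0.148 in sham and from -0.873 through -0.615 to -0.289 in HF-HI. Of the HF-HI libraries, 5 lay below every sham library. The sham mean was -0.200 ± 0.235 (SD, n = 10) and the HF-HI mean -0.627 ± 0.161 (SD, n = 11), a difference of -0.43 that restates the fall of Ctss and the rise of Csf1r. With the GC trend removed it was -0.27, nearly all of it from Ctss.

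Few other microglial genes could be read. Of the 29 genes of microglial identity considered here 4 were in the table analysed here, and Cx3cr1, P2ry12, Tmem119, Aif1, Itgam, Trem2 and C1qa were not among them. The naming of these genes as microglial therefore rests on the literature and not on these libraries. Of the 4, 1 rose, Csf1r, and 3 fell, against 32.6% and 33.6% of all genes. Beside Ctss, Tgfbr1, a receptor for the cytokine TGF-beta, fell by 0.20 (adjusted p = 2.62e-04 by limma) and Cd81, a tetraspanin also made by astrocytes, fell by 0.17 (adjusted p = 0.00606). With the GC trend removed the same 3 fell and none rose. The median difference of the 4 was -0.19, beside -0.0086 over all genes, and their summed level on the linear scale ran from 4402 to 5439 in sham and from 4140 to 4761 in HF-HI. Cd81 makes up most of this sum, with a sham mean of 11.7 on the log2 scale against 9.01 to 9.21 for the other genes.

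Of the 13 listed genes of CSF1R ligands and signaling 7 were tested, Csf1r among them. Csf1r itself, whose call was lost with the GC trend removed, and Cbl were the 2 that rose. None fell, in a table with 32.6% of genes higher and 33.6% lower. The ligand genes Csf1 and Il34 were not among the genes tested. Cbl, the ubiquitin ligase that turns over the activated receptor, rose by 0.21 (adjusted p = 0.00187 by limma) and by 0.23 with the GC trend removed. Grb2, Sos1, Pik3r1 and Src, adaptors and kinases used by many receptors, had differences between -0.025 and 0.022 and did not pass, nor did Ptprz1, a receptor phosphatase that also binds IL-34, at -0.012. Ptprz1 passed as higher with the GC trend removed, at 0.11 (adjusted p = 0.0191 by limma). Src, with an exonic GC content of 60.1%, passed as lower once the GC trend was removed, at -0.27 (adjusted p = 2.63e-07 by limma). The other call gained in that direction was Grb2, at -0.11 (adjusted p = 0.0395).

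The cathepsin and MHC class II list gave Ctss company in both directions. Of 21 listed genes 7 were tested, of which 3 rose and 3 fell, beside 32.6% and 33.6% of all genes. Ctsb, the lysosomal protease cathepsin B, rose by 0.50 without overlap between the groups (adjusted p = 5.91e-07 by limma), at the percentile 93.9 of absolute differences over all genes. Ctsl, cathepsin L, fell by 0.23 (adjusted p = 1.95e-04), and Lgmn, the asparaginyl endopeptidase that matures cathepsins, fell by 0.12 (adjusted p = 0.00498). Ctsd and Ctsa had differences of 0.099 and 0.10 (adjusted p = 0.0229 and 0.0358 by limma), which no longer passed with the GC trend removed, and Ctsa also lost its call in 14 of the 21 fits that left out 1 library. Cst3, the cathepsin inhibitor cystatin C, differed by -0.012 (adjusted p = 0.881). Of the cathepsins, Ctsb, Ctss and Ctsl thus passed with and without the GC trend, and no gene of the MHC class II molecule itself was tested.

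For MHC class I, the partner system of B2m, 5 of 21 listed genes were tested. Of these, 1 was higher and 2 lower, beside 32.6% and 33.6% of all genes. No class I heavy chain and no Tap gene was among the 5. The chaperone gene Calr rose by 0.19 (adjusted p = 1.10e-04 by limma), Canx, another chaperone of the endoplasmic reticulum, fell by 0.13 (adjusted p = 0.0115) and Lnpep, an aminopeptidase, fell by 0.23 (adjusted p = 2.63e-05). These 3 have general roles in protein folding and trimming. The fall of Canx was -0.019 with the GC trend removed and no longer passed. The interferon list held 2 tested genes of 20, Ifnar1, a chain of the type I interferon receptor, with a difference of 0.024 (adjusted p = 0.661 by limma), and B2m. Neither passed.

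Around Il6st, 8 of 26 listed genes of gp130 receptors and JAK-STAT signaling were tested. Of these, 4 rose and 3 fell, beside 32.6% and 33.6% of all genes, and the same counts held with the GC trend removed. Ptpn11, the phosphatase SHP2 that binds gp130, rose by 0.23 (adjusted p = 1.17e-05 by limma), as did Pias1, a SUMO ligase, by 0.23 (adjusted p = 1.98e-04) and Socs7, a suppressor of cytokine signaling, by 0.25 (adjusted p = 3.19e-04). Jak1 and Jak2, the kinases that gp130 engages, fell by 0.15 and 0.23 (adjusted p = 5.38e-04 and 2.29e-04), and Socs5 fell by 0.29 without overlap between the groups (adjusted p = 1.03e-07). Lifr, the receptor chain that pairs with gp130 for LIF, differed by 0.016 (adjusted p = 0.669 by limma). Il6, Il6ra, Stat3 and Socs3 were not among the genes tested. Il6st thus rose while Jak1 and Jak2 fell.

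Of the 26 inflammatory and reactive genes only 3 were tested, and these 3 rose in a table where 32.6% of genes did and 66.3% passed in either direction, so the count says little about inflammatory genes as a group. Ikbkb, a kinase that activates NF-kB, rose by 0.35 without overlap (adjusted p = 9.83e-07 by limma) and kept its call with the GC trend removed. Mif, a cytokine-like protein also made by neurons, rose by 0.47 (adjusted p = 2.87e-05), and Gfap, the filament protein of astrocytes, by 0.29 (adjusted p = 0.0258). The values of Mif and Gfap with the GC trend removed were 0.14 and 0.19, with adjusted p = 0.129 and 0.155 by limma. Gfap also missed the threshold without the HF-HI library 8 or the sham library 10, with adjusted p reaching 0.0508. The cytokine genes Tnf, Il1b and Ccl2 were not in the table analysed here.

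**Figure D3:**
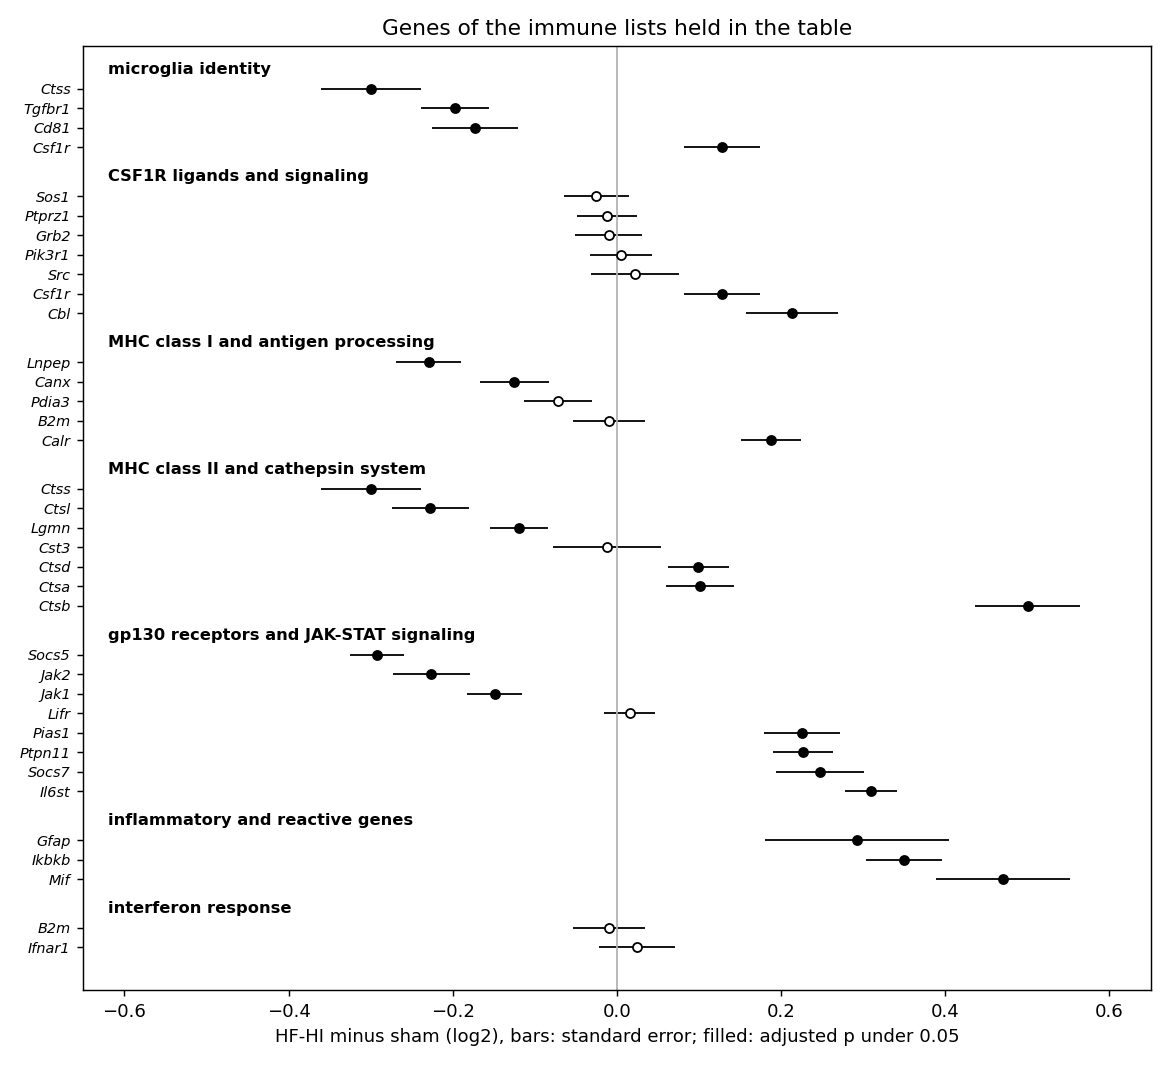
HF-HI minus sham on the log2 scale for each tested gene of 7 lists, with bars for the standard error and filled points for an adjusted p under 0.05. In the microglial list 3 of 4 genes lie below 0, the cathepsin list runs from Ctss at -0.30 to Ctsb at 0.50, and the gp130 list has calls on both sides of 0.

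Markers of other cell types moved as well. Of 12 neuron markers 8 rose and none fell, beside 32.6% of all genes higher and 33.6% lower, and their summed level ran from 80829 to 89566 in sham and from 90419 to 103248 in HF-HI without overlap. With medians centred 6 neuron markers were higher and 2 lower. Of 10 tested astrocyte markers 6 rose and 1 fell, with summed levels of 96067 to 104108 and 105053 to 112168. With quantile normalization 4 astrocyte markers were higher and 3 lower. The glutamate transporter gene Slc1a2, with a sham mean of 15.7, is the largest part of the astrocyte sum. It differed by 0.073, and its call was lost in 8 of the 21 fits that left out 1 library. The endothelial and mural list had 1 higher and 1 lower of 5 tested, the oligodendrocyte list 2 higher and none lower of 8, and neither of the 2 tested choroid plexus genes passed. With the GC trend removed 3 oligodendrocyte genes passed as lower beside the 2 higher, and 3 did with quantile normalization. Of the endothelial and mural genes 2 passed as lower with the GC trend removed and 3 with medians centred, beside 1 higher in each setting. Of the blood and leukocyte list only Hbb-bs was tested, with a difference of 0.047 that did not pass, and Ptprc and Ccr2 were not in the table analysed here. The part of cell composition in the differences of the 4 genes was not tested.

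Covariation among the 4 genes was not called in either group, and 10 or 11 libraries are too few to exclude it. Of 12 correlations, 6 pairs in each group, none passed an adjusted p of 0.05 in a permutation test. Csf1r and Ctss had r = -0.65 in sham (n = 10, permutation p = 0.0420, adjusted p = 0.252, rho = -0.68) and r = -0.57 without the 2 libraries farthest from the Csf1r median. In HF-HI the same pair had r = 0.24 (n = 11, permutation p = 0.490, adjusted p = 0.771, rho = 0.20), and 0.71 without the 2 farthest libraries. Csf1r and Il6st had r = 0.69 in HF-HI (n = 11, permutation p = 0.0186, adjusted p = 0.223, rho = 0.74), 0.58 without the 2 farthest, and r = -0.12 in sham (adjusted p = 0.771). Ctss and B2m had r = 0.13 in sham and 0.098 in HF-HI, with -0.55 and 0.78 once the 2 farthest libraries were left out. For Ctss and B2m, and for Csf1r and Ctss in HF-HI, the value thus turned on 2 libraries.

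**Figure D4:**
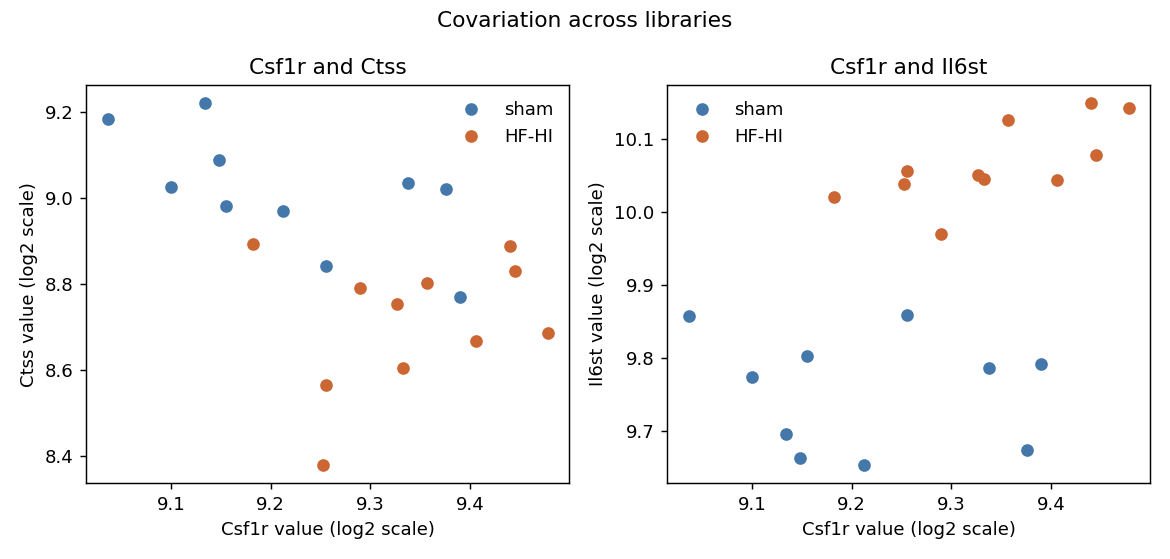
Csf1r against Ctss and Csf1r against Il6st, 1 point per library, on the log2 scale. The sham points fall from upper left to lower right for Csf1r and Ctss (r = -0.65), the HF-HI points rise for Csf1r and Il6st (r = 0.69), and neither passed after adjustment over 12 correlations.

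Ctss followed the GC slope of the library within sham. Over 16 relations of the 4 genes with GC slope and relative depth, chosen after seeing the data, Ctss had r = -0.87 with the GC slope in sham (n = 10, permutation p = 7.60e-04, adjusted p = 0.0122, rho = -0.87) and r = -0.72 without the 2 farthest libraries. In HF-HI it was -0.44 (adjusted p = 0.432 in a permutation test). The mean slope was -0.106 in sham and 0.096 in HF-HI. How much of the Ctss difference goes with the slope was not tested. Csf1r had r = 0.74 with the slope in sham (permutation p = 0.0180, adjusted p = 0.144, rho = 0.77), the opposite sign to Ctss, and r = 0.41 in HF-HI (adjusted p = 0.432). B2m and Il6st had values between -0.30 and 0.33 with the slope, and no relation with depth passed after adjustment. The r of Csf1r and Ctss in sham was -0.37 with the GC trend removed.

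**Figure D5:**
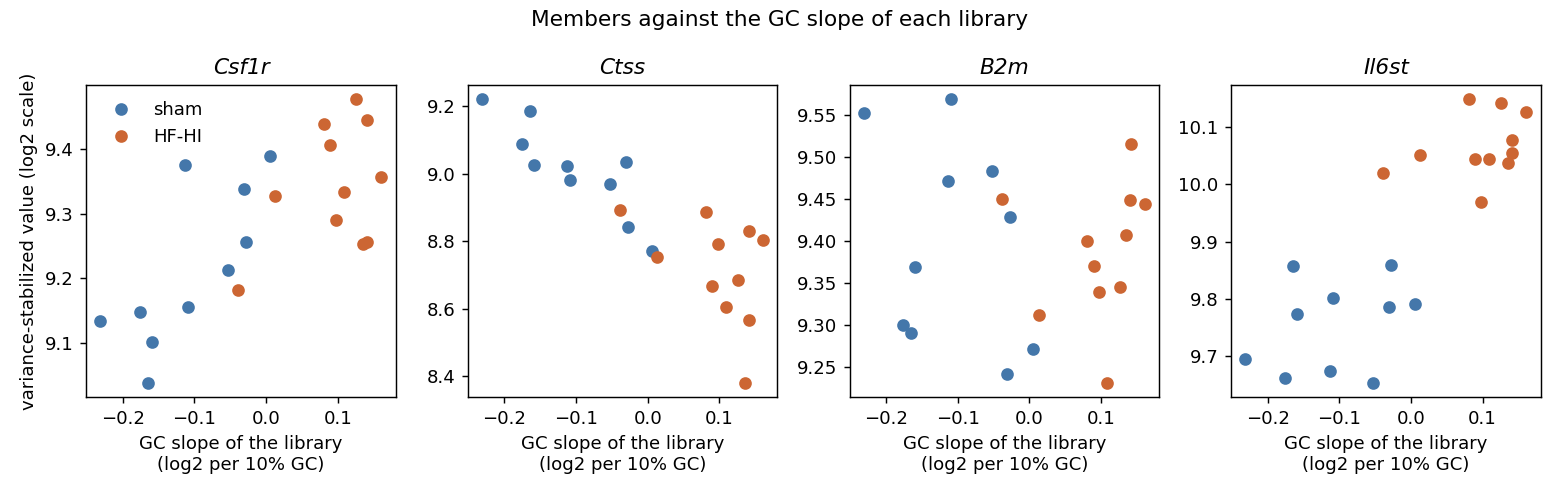
Value of each gene (log2 scale) against the GC slope of its library, with sham and HF-HI in different colours. Ctss falls along the slope within sham (r = -0.87) and Csf1r rises (r = 0.74), and the HF-HI libraries lie mostly at higher slopes, from -0.039 to 0.161, than the sham libraries, from -0.231 to 0.0058.

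The 5 genes nearest to each member did not include another member, which says little since they were picked from all named genes of the table. With each group centred on its own mean, over 21 libraries, the nearest to Csf1r were Nr4a1 (r = 0.77), an immediate early gene of neurons and immune cells, and Lcmt1, Trim35, Me3 and Itm2c (r = 0.76 to 0.77). For Ctss they were Kcnab1 and Rab28 (r = 0.81), Lrp1b (r = 0.80), Atp2b1 and Psat1 (r = 0.77), whose exonic GC content runs from 39.9% to 47.9%. For Il6st they were Prdm2, Zfp462, Zeb1, Kcnk2 and Mdh2 (r = 0.74 to 0.76), and for B2m Cpne9, Xpo7, Aktip, Chn1 and 1110008P14Rik (r = 0.56 to 0.64). The exonic GC content of the nearest genes ran from 44.5% to 56.8% for Csf1r, 43.8% to 52.4% for Il6st and 43.8% to 57.7% for B2m. Among the microglial genes on the same scale, Ctss had r = 0.48 with Cd81, 0.47 with Tgfbr1 and -0.21 with Csf1r, while Csf1r had -0.15 with Cd81 and -0.017 with Tgfbr1. These values are descriptive, and the nearest genes were picked for their high r, so its height is no sign of a relation. The libraries also vary in GC slope and depth as described above.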

How the data were processed

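RNA was extracted from cortex, 1 library per sample, and stranded total RNA libraries depleted of ribosomal RNA were sequenced in pools. The authors aligned reads to mm10 with STAR, counted per transcript with eXpress and deposited variance-stabilized values from DESeq2 on the log2 scale. The versions of STAR and eXpress are not given in the sources used here. Counts and total depth were not analysed here. Stabilized values compress differences of low genes. Symbols, positions and exonic GC content came from GENCODE M21 (5539 of 5544 genes), and promoters from RefSeq (3 of 4 genes matched). HF-HI was set against sham by a two-sided limma fit (version 3.58.1, R 4.3.3) whose eBayes step followed the mean-variance trend, and p-values were adjusted over all genes by Benjamini-Hochberg at a threshold of 0.05. Correlations used 100000 permutations, in Python 3.11.15 with scipy 1.17.1. GC trends were removed per library with a lowess span of 0.3. Relative depth was estimated from the spacing of values whose power of 2 lies between 500 and 600. The limma fit and the depth estimate were tested on simulated data, whose noise was independent between genes and held no GC slope. The other steps were not tested in this way. The labels do not say that samples came from separate animals, so p-values measure only the spread between these samples, which may be technical. Named genes were the 4 members, the genes of 13 lists and the 5 nearest genes of each member. A gene of the microglial list is not reported here and was left out of its counts. The members and lists were chosen with earlier results of these data known. The alternatives were threshold, minimum difference, variance trend, rank test, scaling, low-value filter, replicate block, GC trend, depth covariate and leaving out each library.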

Additional observations from a re-analysis of the deposited data

Results flagged for a closer look

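In the sham group, 4 of 70 genes examined held 1 library far from the other 9 by Dixon's criterion, which chance gives for about 1 in 20 groups, and the 4 members were not among them. Gfap was 9.26 in the sham library 4 against 8.41 to 8.85 in the others, and Calr was 10.58 in the same library against 10.77 to 10.96. Glul, the astrocytic glutamine synthetase gene, was 14.06 in the sham library 8 against 14.19 to 14.33. Sos1 was 9.81 in the sham library 9 against 10.02 to 10.17. The HF-HI group, with 11 libraries, was not examined in this way.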

How the results depend on the processing

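Il6st and Ctss kept direction and call in every alternative that gave a value, with differences of 0.298 to 0.321 and -0.327 to -0.266 when 1 library was left out. None of the alternatives held the GC slope of the library as a covariate. The Csf1r difference was -0.0038 with the GC trend removed, -0.0088 with the replicate block added to that, 0.076 with medians centred, 0.092 with quantile normalization and 0.096 with the depth covariate, and its 0.13 was under a minimum of 0.25, so that 1 member was called higher in these 6 settings. No member was called lower with the lowest quartile left out, since Ctss belongs to it. The B2m difference was 0.10 with the GC trend removed, 0.11 with the replicate block added, and -0.0272 to 0.0092 when 1 library was left out, above 0 without HF-HI 6 (0.0058), sham 10 (0.0092) or sham 6 (0.0074). Library medians centred moved the median of all genes to -0.061 and quantile normalization to -0.045. Correlations turned with the GC trend removed for Csf1r and B2m in sham (0.107), Ctss and B2m in sham (-0.197) and in HF-HI (-0.068). When 1 library was left out, r ran from -0.239 to 0.149 for Csf1r and Il6st in sham, -0.142 to 0.316 for Ctss and B2m in sham, -0.407 to 0.0229 for Csf1r and B2m in sham, and -0.0753 to 0.338 for Ctss and B2m in HF-HI. Same-numbered samples were not treated as pairs, since 4 of 10 such pairs had a correlation over 0.1, in a range of -0.310 to 0.364. Pairs of unlike number were not compared, so this does not exclude a pairing. With the replicate block alone the differences were 0.13 for Csf1r, -0.30 for Ctss, -0.0023 for B2m and 0.31 for Il6st, with no call changed. Other causes were not tested.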
